A study of Mus musculus with 107 samples.

Results

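The genes described are 8 core clock and clock output genes of the liver: Arntl (which encodes BMAL1), Clock, Npas2, Nfil3, Dbp, Tef, Per2 and Usp2. They were taken as named members, through every probe annotated to them, and they are 8 of the 12315 genes that could be measured. Each has 1 probe except Tef, which has 2 whose mean was used. The order of the genes along their shared axis was described, and metabolic genes that followed it were counted.

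Livers came from female F2 mice of a cross between the strains C57BL/6J and DBA/2J, and every animal ate an atherogenic diet. The labels state 111 mice and list 107 arrays, 3 of them with empty columns, which left 104 mice in 1 group with no control diet, parental strain, age or time of killing given. Each array had 2 colours and set the RNA of 1 mouse against a pool that held equal parts of RNA from all the livers. Ratios against such a pool carry no level of expression, so the tissue could not be checked against its defining markers, and fewer cells of a type cannot be told apart from less RNA per cell.

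The deposited values are log ratios that stop at exactly -2 and 2. Base 10 is the likely reading of that limit, which would then be a 100-fold difference, and mouse over pool is the likely direction from the order of words in the sample titles. Neither is settled. Turning every sign would swap the mice called high and low and leave each correlation (r) as it is, and a smaller base would shrink the folds. A sign turned on single arrays only would change r. Of 5356 pairs of arrays 7 correlated below -0.3, and whether any single array is turned was not tested. A group of 18 arrays held 946 to 1828 values at these limits against at most 496 on the other 86, so results are also given within each kind of array. Each mouse has 1 array, so array noise and differences between mice are not separated; precision depends on how many arrays there are.

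The liver clock is a feedback loop. BMAL1 pairs with CLOCK, or with its close relative NPAS2, and the pair binds E-boxes to switch on Per and Cry genes, whose proteins return to block it, as well as Dbp and other outputs. DBP and TEF are PAR bZIP factors that activate genes through D-boxes, the same elements at which NFIL3 represses, while ROR and REV-ERB proteins compete at a further element that times Arntl and Nfil3. Through these elements the loop reaches detoxification, bile acid, lipid and heme pathways, and in mouse liver Arntl and Dbp are known to peak at opposite times of day.

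The promoter letters of these genes were read from RefSeq (GRCm38.p6) because the elements set their known timing. The table held 11 windows, each from 250 bases before to 50 after a start site, for 7 of the 8 members. They were searched on both strands for the E-box CACGTG (in 7.17% of all 32544 windows of 300 bases), the related CACGTT (4.71%), the D-boxes TTATGTAA and TTACGTAA (1.05%) and the ROR element cores TAGGTCA and TGGGTCA (6.48%). None of these motifs overlapped another in the windows of the members. Arntl held a ROR element core in 1 of its windows and not in the other, Nfil3 held such a core, and Tef held an E-box before both of its start sites. The windows of Clock, Npas2, Dbp and Usp2 held none of these letters, which says nothing of other parts of those genes. A match is a run of letters and not a measured binding site.

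The Arntl match lies in the transcribed region, at positions 31 to 37 after the start site in the window chr7:113207261-113207560 on the plus strand, and it is shown in capitals within 30 bases at chr7:113207529-113207558.
Arntl: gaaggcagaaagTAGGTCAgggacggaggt

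The Nfil3 match lies on the other strand at positions -12 to -6, shown in capitals in the 250 bases before the start site at chr13:52981040-52981289 on the minus strand.
Nfil3: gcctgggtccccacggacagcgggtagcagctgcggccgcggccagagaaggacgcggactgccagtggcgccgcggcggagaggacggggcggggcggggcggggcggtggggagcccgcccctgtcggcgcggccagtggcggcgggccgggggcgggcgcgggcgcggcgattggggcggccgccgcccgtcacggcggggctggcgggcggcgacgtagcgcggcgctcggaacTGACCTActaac

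The Tef E-boxes lie at -127 to -122 before the start site in chr15:81802423-81802672 and at -138 to -133 in chr15:81811164-81811413, both on the plus strand, and are in capitals.
Tef upstream: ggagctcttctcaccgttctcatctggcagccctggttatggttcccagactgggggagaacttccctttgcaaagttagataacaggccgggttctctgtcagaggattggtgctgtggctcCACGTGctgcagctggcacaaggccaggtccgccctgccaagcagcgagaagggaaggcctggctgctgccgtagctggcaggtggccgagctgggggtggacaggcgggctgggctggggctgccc
Tef downstream: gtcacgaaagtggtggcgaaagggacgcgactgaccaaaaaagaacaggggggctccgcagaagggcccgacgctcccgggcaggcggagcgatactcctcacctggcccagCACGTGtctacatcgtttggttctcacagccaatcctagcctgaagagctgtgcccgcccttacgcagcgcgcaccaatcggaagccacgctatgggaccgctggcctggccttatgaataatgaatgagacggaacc

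The same 250 bases before Dbp, at chr7:45704997-45705246 on the plus strand, are shown for contrast, since Dbp had the widest range of the 8 genes.
Dbp: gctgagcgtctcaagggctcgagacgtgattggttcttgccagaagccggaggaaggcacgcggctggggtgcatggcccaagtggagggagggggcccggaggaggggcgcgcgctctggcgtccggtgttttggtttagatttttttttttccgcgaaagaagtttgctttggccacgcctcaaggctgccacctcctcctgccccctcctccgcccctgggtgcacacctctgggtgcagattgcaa

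Among the activators, Arntl ran from -0.653 (mouse 25) through a median of -0.0906 to 0.632 (mouse 138) as log10 ratios. Its SD was 0.299, higher than that of 97.1% of the 12315 genes, and its 5th and 95th percentiles lay 8.48-fold apart, against 1.94-fold for the median gene. Ratios were above 0 in 40 mice and below 0 in 64. Arntl was thus one of the widest ranging genes of these livers, with mice spread along the whole interval rather than in separate groups.

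Clock, the partner of BMAL1, ran from -0.261 (mouse 49) through 0.017 to 0.258 (mouse 150), a 2.45-fold range between those percentiles. Its SD of 0.116 was near the median gene's 0.101. Npas2 ran from -0.374 (mouse 100) through 0.0271 to 1.34 (mouse 70) over the 101 mice in which it was measured. Most of that spread lay on the 18 limit-rich arrays, where the SD of Npas2 was 0.409 against 0.0784 on the 86 others, so the main values of Npas2 are also given on those 86 arrays. Nfil3 ran from -0.493 (mouse 49) through -0.0731 to 0.459 (mouse 138), with a 4.11-fold range and 37 mice above 0.

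Dbp, the main PAR bZIP output of the loop, had the widest range. It ran from -1.29 (mouse 138) through -0.0551 to 0.388 (mouse 45), its SD of 0.382 exceeded that of 99.2% of genes, and its range was 16.3-fold. The spread was uneven: the lowest mouse lay much farther below the median than the highest lay above it. Mouse 138, lowest in Dbp, was the highest in both Arntl and Nfil3.

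Tef, the second PAR bZIP factor, ran from -0.423 (mouse 20) through -0.0036 to 0.426 (mouse 63), a 2.40-fold range. Per2, the negative arm of the loop, ran from -0.489 (mouse 150) through -0.0101 to 0.338 (mouse 78), a 3.34-fold range. Usp2, a ubiquitin protease that the clock drives, ran from -0.501 (mouse 130) through -0.0543 to 0.472 (mouse 83), a 4.70-fold range. The ranges of these output genes all exceeded that of the median gene.

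**Figure D1:**
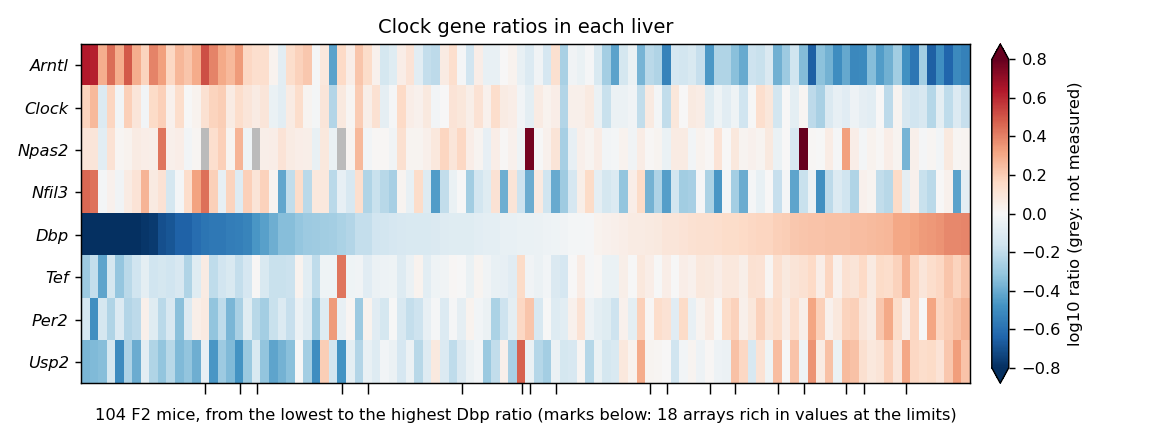
Log10 ratios of the 8 genes (rows) in 104 livers (columns), ordered by Dbp; red is above the pool, blue below, grey not measured, colours stop at 0.8 in either direction, and marks under the plot show the 18 limit-rich arrays. Arntl falls from left to right as Dbp rises, Tef, Per2 and Usp2 rise with Dbp, and Npas2 has isolated high and low columns on marked arrays.

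Arntl and Dbp moved in opposite directions across the mice (r = -0.884, 95% interval -0.92 to -0.833, rho = -0.902, n = 104). The permutation p of each was 1e-05, the smallest that 100000 permutations can give, and the adjusted p was 5.372e-32 in the limma fits of all genes on each of the 2 genes, where the larger is given. It was -0.869 without the 2 mice farthest from the Arntl median, -0.888 on the 86 arrays and -0.928 on the 18. Dbp was above 0 and Arntl below 0 in 44 mice, the reverse held in 40, both were below 0 in 20, and both were above 0 in 0 of the 104.

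The mice at the ends show the axis gene by gene. In mouse 138 Dbp was -1.29 and Arntl 0.632, with Clock at 0.178, Tef at -0.293, Per2 at -0.131 and Usp2 at -0.365. In mouse 45 Dbp was 0.388 and Arntl -0.543, with Clock at -0.182, Tef at 0.226, Per2 at 0.272 and Usp2 at 0.227. Every one of these genes stood on the opposite side of 0 in the 2 livers, whereas Npas2 was above 0 in both (0.0951 and 0.0235).

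Some livers left the axis. Mouse 20 had the third lowest Dbp (-1.14) and the lowest Tef, yet its Clock was -0.11 and its Nfil3 -0.015, where the 2 mice with lower Dbp had Nfil3 at 0.434 and 0.459. Mouse 78 had the highest Per2 of all (0.338) together with low Arntl (-0.431), but its Dbp was -0.269 and its Usp2 -0.149, whereas the next highest Per2 mice, 25 and 53, had Dbp at 0.229 and 0.344. Mouse 101, a limit-rich array, had the third highest Arntl (0.515) with Tef at 0.0643 and Per2 at 0.0714.

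**Figure D2:**
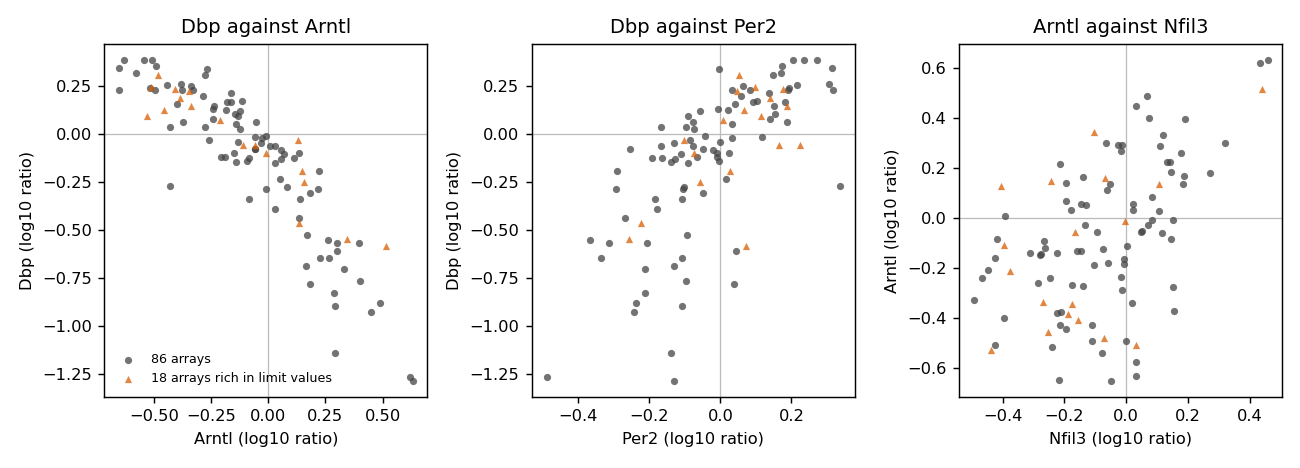
Log10 ratios of Dbp against Arntl, Dbp against Per2 and Arntl against Nfil3; each point is 1 mouse, circles are the 86 arrays and triangles the 18 limit-rich ones, and grey lines mark 0. The Dbp and Arntl points form a narrow falling band (r = -0.884) with no points where both are above 0, Dbp rises with Per2 (r = 0.681) with mouse 78 apart at the right, and Arntl rises loosely with Nfil3 (r = 0.507).

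All 28 pairs were then compared. A pair was called where the adjusted p over all genes was under 0.05 in both limma fits. 20 pairs were called. The share of all genes called was 31.2% in the fit on Arntl, 28.9% on Clock, 4.85% on Npas2, 11.5% on Nfil3, 34.8% on Dbp, 39.5% on Tef, 6.59% on Per2 and 15.5% on Usp2, so a call alone is common for some of these genes and the size of r carries more. The share for Npas2 was 16.5% on the 86 arrays and 0.544% with ranks over mice, and with ranks those for Nfil3 and Per2 were 19.2% and 13.9%.

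Dbp, Tef, Per2 and Usp2 rose and fell together: all 6 pairs among them were called and positive, with r from 0.681 to 0.8 and a median of 0.724. Dbp and Tef were the closest (r = 0.8, rho = 0.855), followed by Per2 and Usp2 (r = 0.733, rho = 0.744). Tef and Usp2 gave 0.726, Dbp and Usp2 0.723, Tef and Per2 0.69, and Dbp and Per2 0.681. In all 6 pairs r and rho both had the smallest permutation p.

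The value for Tef rests on which probe is read. Its 2 probes agreed only in part (r = 0.496), and with Dbp the first gave r = 0.429 (0.036 on the limit-rich arrays) and the other 0.921 (0.864 on those arrays). With Arntl they gave -0.34 and -0.855. Read through the other probe alone, the r of Tef with Dbp was larger in size than that of every pair among the 8 genes.

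Arntl and Clock rose together (r = 0.779, rho = 0.763, 0.769 on the 86 arrays and 0.852 on the 18), with an adjusted p of 1.035e-18. Nfil3 followed them less closely, at r = 0.507 with Arntl and 0.463 with Clock, and both pairs were called. The Nfil3 pair with Arntl dropped to 0.44 without the 2 mice farthest from the Arntl median, which include mouse 138.

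Over all mice Npas2 was called with none of the other 7 genes, but on the 86 arrays it was called with Clock and with Arntl, and with ranks over mice it was called with Clock. Its r with Clock was 0.213 and its rho 0.418 (permutation p = 7e-05), and r was 0.464 on the 86 arrays. With Arntl its r was 0.102 and its rho 0.302 (permutation p = 0.00217), and r was 0.311 on the 86 arrays. With Dbp its r was -0.051 and its rho -0.23, and r was -0.229 on the 86 arrays. In these values the sign placed Npas2 with Clock and Arntl, while over all mice the adjusted p for each of its pairs was at least 0.302. Its r with Nfil3 was -0.012, and 0.223 on the 86 arrays. When values at the limits were kept, Npas2 turned to 0.00856 with Dbp, 0.163 with Tef and 0.0409 with Per2. Its r with Clock (0.118) and with Arntl (0.0558) stayed positive in that setting.

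Between the 2 sets all 16 pairs were negative and 11 were called, with r from -0.884 to -0.0282 and a median of -0.472. Arntl gave -0.712 with Tef, -0.743 with Per2 and -0.721 with Usp2. Clock gave -0.668 with Per2, -0.569 with Dbp, -0.538 with Usp2 and -0.431 with Tef. The most negative r of Arntl was thus with Dbp. That of Clock was with Per2 over all mice, but with Dbp on the limit-rich arrays (-0.747 against -0.678) and with the first principal component of all genes as a term (-0.704 against -0.676).

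Nfil3, which acts against DBP and TEF at D-boxes, was lower where Dbp was higher (r = -0.513, rho = -0.403), and lower where Per2 (r = -0.379) and Usp2 (r = -0.39) were higher, all called. Against Tef it gave r = -0.252 with an adjusted p of 0.06967, which missed the threshold, and 0.209 on the limit-rich arrays. The pair was called on the 86 arrays (-0.319), with ranks (-0.251), with the first principal component of all genes as a term (-0.408) and with 1 probe per gene (-0.418).

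**Figure D3:**
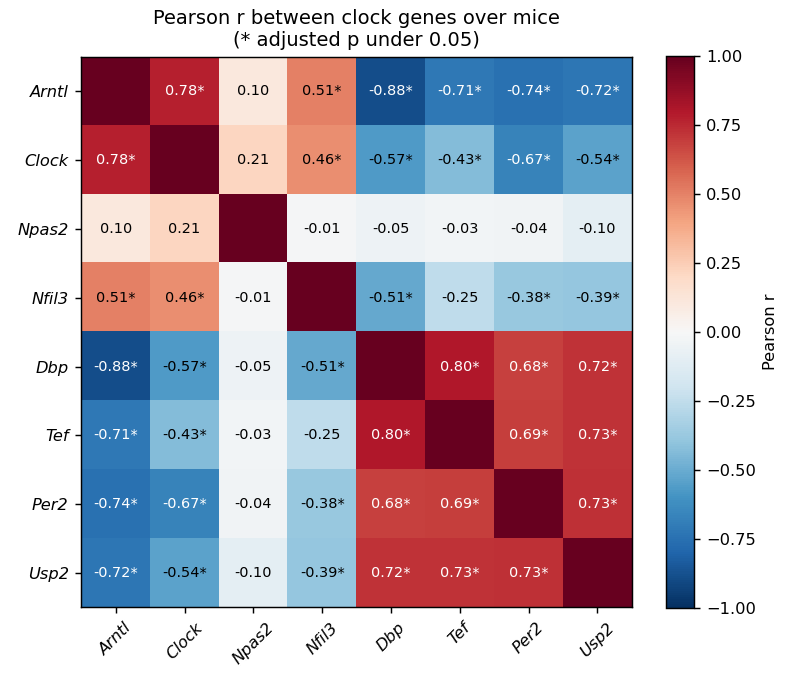
Pearson r over mice for each pair of the 8 genes (n = 104, or 101 with Npas2); red is positive, blue negative, and an asterisk marks an adjusted p under 0.05. A red block of Dbp, Tef, Per2 and Usp2 (0.681 to 0.8) faces a blue block against Arntl, Clock and Nfil3, and the Npas2 row is pale.

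The order along 1 axis came from principal components of the 8 genes over the 101 mice with all of them. Component 1 held 61.6% of the variance, where an equal share of 8 genes is 12.5%. A first component is the largest by construction and would exceed that share even for unrelated genes. The loadings ran from Arntl (-0.944) through Clock (-0.767), Nfil3 (-0.564) and Npas2 (-0.113, or -0.35 on the 86 arrays) to Per2 (0.868), Usp2 (0.87), Tef (0.887) and Dbp (0.908). The sequence Arntl, Clock, Nfil3, Npas2 was the same under the other settings run, except on the limit-rich arrays alone (15 mice), where Npas2 came before Nfil3. The order among Per2, Usp2, Tef and Dbp changed between settings, and their loadings differ too little to be ranked.

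Component 2 of the 8 genes (13.1%) was almost only Npas2 (loading 0.969), so a plane was also drawn without it, over 104 mice; this was chosen after the values were seen. There component 1 held 68.0% and component 2 12.2% (70.4% and 11.8% on the 86 arrays). The angle around the plane, counted from component 1, was 4.3 degrees for Dbp, 8.0 for Per2, 13.7 for Usp2 and 27.9 for Tef. On the far side lay Nfil3 at 128.7, Clock at 158.6 and Arntl at 176.7 degrees. Component 2 thus parted Nfil3 from Arntl and, less so, Tef from Dbp. It held less than the equal share of 8 genes (12.5%), and without Npas2 an equal share is larger. Angles away from component 1 therefore rest on a small part of the variance. Tef entered as the mean of probes that agreed only in part, and this plane was not drawn with 1 probe per gene.

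The same plane placed genes that had not defined it. Per3 lay at 12.0 degrees and Cry2 at 19.1, between Per2 and Tef, and Nr1d2 at 24.4. Cry1 lay at 132.6, beside Nfil3, and Rora at 82.4 between the 2 sides. A line in this plane has length 1 for a gene that lies wholly in it. The lengths were 0.812 for Per3 and 0.743 for Cry2, but 0.515 for Nr1d2, 0.576 for Cry1 and 0.572 for Rora. On the 86 arrays Nr1d2 lay at 38.0 degrees. Npas2 lay there at 137.0 degrees, between Nfil3 at 130.1 and Clock at 154.3. Its length was only 0.389, against 0.908 and 0.833 for those genes, so the place of Npas2 is loose. With no times of killing in the labels, these angles describe how ratios covary and are not hours.

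**Figure D4:**
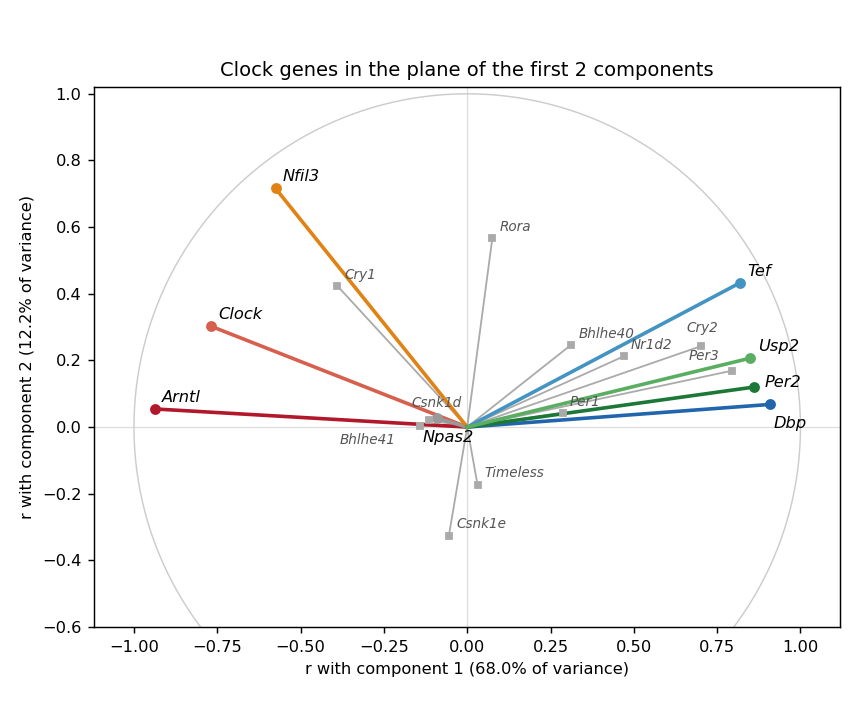
Correlation of each gene with component 1 (x axis) and component 2 (y axis) of the 7 members other than Npas2, over 104 mice; coloured lines are the 8 members, grey lines the other clock genes, and the circle marks r = 1. Dbp, Per2, Usp2 and Tef fan out on the right, Arntl and Clock lie on the left, Nfil3 and Cry1 point up and left, and Npas2 stays near the centre.

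Of 18 further clock genes listed, 11 were measured. A gene was counted with Dbp where its adjusted p was under 0.05 in the fit on Dbp and in the fit on Arntl, positive in the former and negative in the latter, and with Arntl where the signs were turned. Among all 12313 genes tested 24.3% met this rule, 11.1% with Dbp and 13.2% with Arntl. Of the 11 clock genes 3 went with Dbp, 2 with Arntl and 6 with neither.

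Those with Dbp were Per3 (r = 0.721 with Dbp and -0.718 with Arntl), Cry2 (0.614 and -0.555), both of the negative arm, and Nr1d2 (0.634 and -0.52), which encodes the repressor REV-ERB beta. Those with Arntl were Cry1 (-0.516 and 0.466), the later repressor of the loop, and Csnk1d (-0.236 and 0.264), a kinase that marks PER proteins for decay. Csnk1d was at the threshold, with an adjusted p of 0.0499 in the limma fit on Dbp. Per1, Rora, Bhlhe40, Bhlhe41, Csnk1e and Timeless did not meet the rule. With the first principal component of all genes as a term, 4 of the 11 went with Dbp and 1 with Arntl. Csnk1d was then not called in either limma fit (adjusted p 0.531 for Dbp and 0.178 for Arntl), and Bhlhe40 met the rule on the Dbp side. The 2 Cry genes thus stood on opposite sides of the axis. As for Tef, the probe matters: the 2 probes of Per3 (r = 0.538 with each other) gave 0.414 and 0.872 with Dbp, and those of Nr1d2 0.464 and 0.776.

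The genes most like each member, by Pearson r over all measured genes outside the 8, differed between members. For Arntl they were Lgalsl (0.775), Mad2l2 (0.769) and Desi2 (0.749), and for Clock Cldn1 (0.749), Tars (0.726) and Desi2 (0.725). For Nfil3 they were Cry1 (0.616), Zw10 (0.608) and Zfp180 (0.59). For Dbp they were Ngef (0.79), Upp2 (0.775) and Pcsk4 (0.744), and for Tef Ngef (0.791), Acy1 (0.764) and Upp2 (0.746). For Per2 they were Per3 (0.738), Mtss1 (0.714) and Cry2 (0.7), so 2 of its 3 nearest genes belong to the negative arm with it. For Usp2 they were Rhobtb1 (0.821), Slc46a3 (0.76) and Alas1 (0.724), and Rhobtb1 was closer to Usp2 than any member was.

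For Npas2 the nearest were Cd33 (0.817, n = 94), Olfr972 (0.673, n = 100) and Ppcdc (0.619, n = 101). On the 86 arrays these dropped to 0.486, 0.431 and 0.456, so the likeness to Npas2 leaned on the limit-rich arrays. For the other 7 genes every listed value on the 86 arrays was 0.572 or higher.

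Metabolic genes were then read against the axis, from 8 lists of liver pathways with 120 measured genes. In the fit on Dbp 34.8% of all genes were called (17.1% positive and 17.7% negative), and in the fit on Arntl 31.2% (15.9% positive and 15.3% negative). Of the 120 listed genes 37 went with Dbp and 13 with Arntl, against 11.1% and 13.2% of all genes, and their median r with Dbp was 0.255 against 0.017 over all genes. The lists were chosen with earlier results of these data known, so this contrast is a description and not a test. Among the list genes named below by rule as going with Dbp or with Arntl, the largest permutation p of r with Dbp was 0.0035, for Cyp2b10. Its adjusted p in the limma fit on Dbp, 0.0117, was also the largest.

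The axis ran partly along the main direction in which all genes varied. The first principal component of all genes correlated at -0.492 with Dbp, -0.543 with Tef and 0.338 with Arntl, and at -0.299 with component 1 of the 8 members. With that component as a term in the fits, 16 of the 120 listed genes went with Dbp and 12 with Arntl, against 3.58% and 6.48% of all genes under the same term. Values given that term are called partial r here.

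Detoxification genes, many of them known PAR bZIP targets, went more often with Dbp than with Arntl: 7 of 15 went with Dbp, 1 with Arntl and 7 with neither (median r with Dbp 0.332). Nr1i3, which encodes the xenobiotic receptor CAR, ran from -0.644 through -0.0181 to 0.195 and followed Dbp at r = 0.616 (-0.493 with Arntl, partial r with Dbp 0.438). Alas1, the rate-limiting enzyme of heme synthesis, ran from -0.547 through -0.0598 to 0.416, and gave 0.574 with Dbp and -0.636 with Arntl, with a partial r with Dbp of 0.449. Cyp2c37 followed Dbp at 0.533 (0.222 on the limit-rich arrays), but its adjusted p was 0.0525 in the limma fit with the component as a term. Cyp2b10, the classic target of CAR, went with Arntl instead (-0.286 with Dbp and 0.319 with Arntl), and was not called with Dbp once the term was added (adjusted p = 0.198). With the term, 3 of the 15 went with Dbp and 0 with Arntl.

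Of 16 cholesterol and bile acid genes, 7 went with Dbp and 2 with Arntl (4 and 1 with the component as a term). Abcg8, a sterol exporter into bile, followed Dbp at 0.558, and Nr1h4, which encodes the bile acid receptor FXR, at 0.538. Stard4, a carrier of cholesterol, gave 0.511 with Dbp and -0.534 with Arntl. Insig2, which holds SREBP proteins in the endoplasmic reticulum, ran from -0.457 through 0.00837 to 0.504 and had the strongest link to Arntl of these lists (r = 0.692, -0.633 with Dbp). It gave 0.648 on the 86 arrays and 0.854 on the 18, and its partial r with Arntl was 0.703. Sqle, an enzyme of sterol synthesis, went with Arntl at 0.254. Its r with Dbp was -0.534 on the 86 arrays and -0.0795 on the 18. Sqle was not called in the limma fit with the term (adjusted p = 0.574 for Dbp).

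Of 17 genes of fatty acid synthesis and desaturation, 7 went with Dbp and 0 with Arntl (1 and 1 with the term). Srebf1, the master regulator of lipogenesis, followed Dbp at 0.564 and kept a partial r of 0.466. Dgat2, which makes triglyceride, gave 0.521 (partial r 0.273) and Mlxipl, the glucose-sensing factor ChREBP, 0.479 (partial r 0.24, adjusted p = 0.0883 in the limma fit). On the limit-rich arrays Mlxipl gave 0.16 with Dbp. In these livers Srebf1 was thus higher where Dbp was high, and Insig2, which restrains its product, was lower there. The other Insig gene, Insig1, went the opposite way to Insig2 (r = 0.426 with Dbp and -0.413 with Arntl, called with Dbp).

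In fatty acid oxidation 2 of 15 genes went with Dbp and 1 with Arntl. Ppara, the receptor that drives the pathway, ran from -0.965 through -0.0596 to 0.216 and followed Dbp at 0.645 (rho = 0.739, partial r 0.48). Fabp1, a carrier of fatty acids, gave 0.365 (partial r 0.18, adjusted p = 0.232). Pdk4, a kinase that spares glucose in fasting, ran from -0.807 through -0.0922 to 1.04, an 8.72-fold range, and went with Arntl (0.429, -0.452 with Dbp, -0.799 with Dbp on the 18 arrays). With the term, 1 gene of the list went with Dbp and 5 with Arntl, so the balance of this list turned.

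Of 17 genes of glucose and amino acid handling 3 went with Dbp and 1 with Arntl (0 and 3 with the term). Igfbp1, a secreted protein raised by fasting and repressed by insulin, ran from -1.06 through -0.225 to 0.649, a 16.2-fold range like that of Dbp itself. It went with Arntl at 0.52 and against Dbp at -0.63 (partial r -0.479). Otc, a urea cycle enzyme (0.48 with Dbp), Slc2a2, the liver glucose carrier (0.477), and Glul, which makes glutamine (0.422), went with Dbp. On the limit-rich arrays r with Dbp was 0.201 for Otc, 0.414 for Slc2a2 and 0.113 for Glul. With the term, Otc and Glul were not called with Dbp (adjusted p 0.371 and 0.271), and Slc2a2 was called with Dbp alone.

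In the list of NAD, heme, iron and nucleotide genes 3 of 12 went with Dbp and 2 with Arntl (2 and 0 with the term). Upp2, a uridine phosphorylase of the liver, ran from -1.29 through -0.101 to 0.408, a 9.52-fold range. It followed Dbp at 0.775 (rho = 0.771, 0.791 on the 86 arrays, 0.563 on the 18) and ran against Arntl at -0.678, with a partial r of 0.688 with Dbp. Alad, the next enzyme of heme synthesis after Alas1, gave 0.464 with Dbp (0.177 on the 18 arrays), and Nmnat3, which makes NAD in mitochondria, 0.41. Hmox1, which breaks heme down, went with Arntl (0.362, -0.448 with Dbp), as did Tfrc, the transferrin receptor (0.246 and -0.324), and neither was called with the term. On the 18 arrays their r with Dbp was -0.146 and -0.106. The heme synthesis genes and the heme breakdown gene were thus on opposite sides before the term was added.

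Of 16 glucocorticoid and feeding response genes 4 went with Dbp and 5 with Arntl (3 and 0 with the term), and the median r with Dbp was -0.0331. Klf15, a regulator of amino acid use, followed Dbp at 0.59 (partial r 0.425), and Klf10 at 0.435. For Klf15 r with Dbp was 0.631 on the 86 arrays but 0.0795 on the 18. Hsd11b1, which regenerates active glucocorticoid, gave 0.446 with Dbp but 0.0478 on the 18 arrays and a partial r of -0.00393. Sgk1, a kinase induced by glucocorticoid (-0.52 with Dbp), Ddit4, a restraint on mTOR (-0.478), and Cdkn1a, an inhibitor of the cell cycle (-0.478), went with Arntl. Ddit4 had the widest range of the genes named here, 21.1-fold, from -0.939 through -0.258 to 1.29.

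Of 12 cell cycle and temperature output genes 4 went with Dbp and 1 with Arntl (2 and 2 with the term). Wee1, a kinase that delays mitosis and a known target of the loop, ran from -0.52 through -0.0387 to 0.455 and followed Dbp at 0.54 and against Arntl at -0.586 (partial r 0.561 and -0.586). Ccnd1, which encodes cyclin D1, gave 0.421 with Dbp and -0.465 with Arntl. Prodh, which degrades proline, gave 0.443 with Dbp, but -0.218 on the limit-rich arrays. Lonrf3 went with Arntl (0.384), and its r with Dbp was -0.307 over all mice against -0.555 on the 86 arrays and -0.647 on the 18.

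Outside the lists, the 10 genes that followed Dbp most closely were led by Ngef (0.79), Pcsk4 (0.744), Dclre1a (0.705) and Gstt2 (0.682). They also held Serpina6, the carrier of glucocorticoid in blood, which ran from -1.22 through -0.106 to 0.393 (r = 0.681), Car5a, a mitochondrial carbonic anhydrase (0.679), and Hsd3b3, a steroid dehydrogenase (0.68). The remaining 3 were Daam1 (0.657), Slc38a3 (0.656), a glutamine carrier, and Abcd2 (0.648), a peroxisomal fatty acid carrier. All 10 were called with Dbp in the limma fit with the component as a term, with partial r of 0.507 or higher.

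The 10 on the Arntl side were led by Lgalsl (-0.725 with Dbp and 0.775 with Arntl), Mad2l2 (-0.742 and 0.769), Desi2 (-0.702 and 0.749) and Chka (-0.706 and 0.747), a kinase of phospholipid synthesis. The others were Nedd4l, Ankrd39, Neu3, Ttpal, Leprotl1 and Ier5, with r from 0.585 to 0.737 with Arntl. Lgalsl tightened to a partial r of -0.838 with Dbp once the component was a term.

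Markers of some cell types moved with the axis as well. Among hepatocyte markers 3 of 5 measured went with Dbp, against 11.1% of all genes. With Arntl went 4 of 7 macrophage markers (C1qb, C1qc, Cd68 and Adgre1) and 4 of 7 of stellate cells and fibroblasts (Col1a1, Col1a2, Col3a1 and Dcn). So did 4 of 5 of endothelium, 2 of 6 of bile duct and 1 of 6 of neutrophils. The share of all genes was 13.2%, and that of neutrophils lay near it. The macrophage marker Clec4f (0.19 with Dbp and -0.0818 with Arntl) and the stellate marker Des (0.208 and -0.24) had the opposite signs. Lrat (-0.0812 with Dbp) and Acta2 (-0.114) of the stellate list were not called. None of 9 markers of T, NK and B cells, 4 of pancreas or 5 of skeletal muscle met the rule in either direction, and fat had 1 of 4 on each side. The mean of each list correlated with Dbp at 0.366 for hepatocytes, -0.36 for macrophages, -0.361 for stellate cells, -0.341 for endothelium, -0.338 for bile duct and -0.347 for neutrophils. Those for T, NK and B cells, pancreas, muscle and fat lay between -0.125 and 0.143. With the component as a term, 1 hepatocyte marker went with Dbp, 1 macrophage and 1 endothelial marker with Arntl, and no other marker either way. The shares of all genes under that term were 3.58% and 6.48%. The part of these cells in the metabolic results was not tested.

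**Figure D5:**
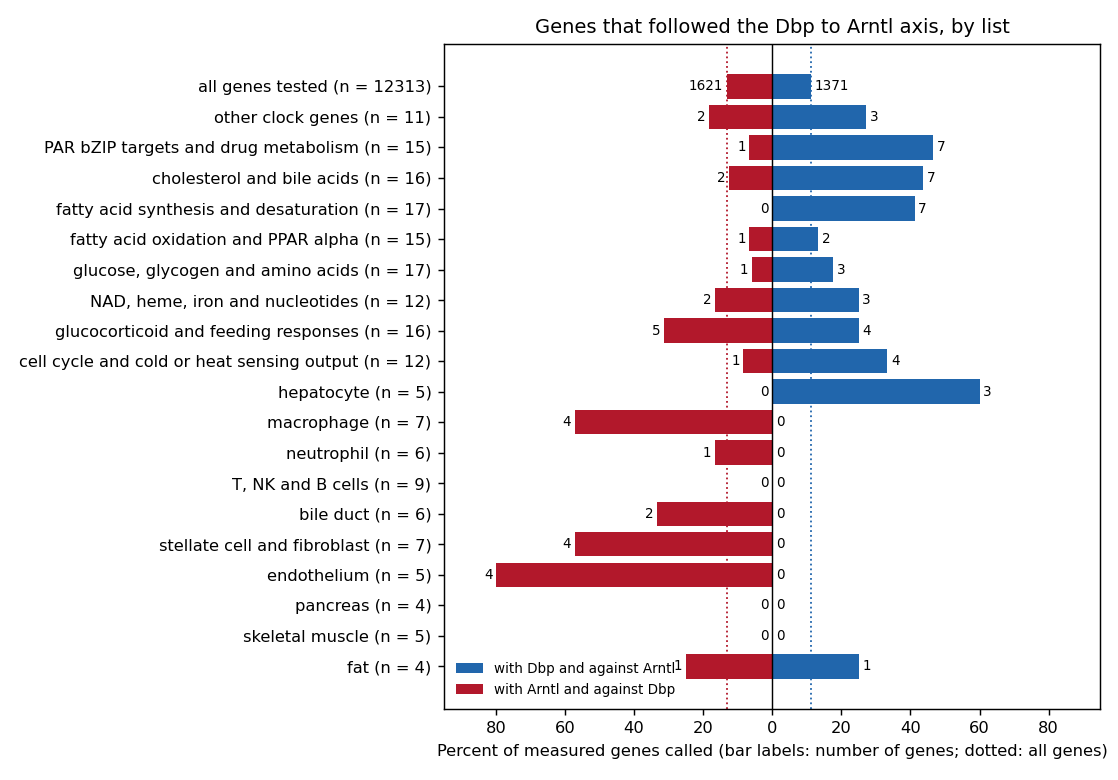
Percent of the measured genes of each list that went with Dbp (blue, right) or with Arntl (red, left); numbers at the bars are gene counts and dotted lines the share of all genes, 11.1% and 13.2%. Drug metabolism, cholesterol and fatty acid synthesis have 7 genes each on the Dbp side, and macrophage, stellate and endothelial markers 4 each on the Arntl side.

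Per2 is known to peak after Dbp, so genes were also fitted on Per2 with Dbp in the same model. Of 12313 genes 24.6% were called for the Per2 term (12.2% positive and 12.4% negative), and r is here the partial r of Per2 at a given Dbp. Of the 11 other clock genes 7 were positive and 1 negative. Per3 (0.487), Cry2 (0.487) and Cry1 (0.379), all of the negative arm, rose with Per2 beyond what Dbp gave, as did Timeless (0.483), Csnk1e (0.482), Bhlhe40 (0.363) and Csnk1d (0.302). Nr1d2 alone ran against it (-0.286). With the component of all genes added, Per3, Cry2 and Cry1 gave 0.479, 0.475 and 0.51 and Timeless 0.354, and these 4 were still called. Csnk1e (0.255, adjusted p = 0.134), Bhlhe40 (0.284, 0.0854), Csnk1d (0.24, 0.178) and Nr1d2 (-0.209, 0.25) were no longer called in the limma fit. Cry1, which ran against Dbp, thus still rose with Per2 among mice of like Dbp.

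Of the metabolic lists, fatty acid oxidation had 10 of 15 genes negative for the Per2 term and 0 positive, led by Ehhadh, a peroxisomal enzyme of that pathway (-0.591). Detoxification had 6 of 15 negative. Cholesterol and bile acids had 7 of 16 negative and 3 positive, and glucose and amino acids 7 of 17 negative and 1 positive. These counts are from fits without the component of all genes. Among all genes 12.4% were negative and 12.2% positive. Cell cycle and temperature output had 5 of 12 positive and 0 negative, among them Wee1 (0.455). Ddit4, which ran against Dbp, gave 0.527 for the Per2 term. With the component of all genes added, Ehhadh (-0.445), Wee1 (0.413) and Ddit4 (0.355) were still called for Per2. Nr1i3 (-0.307 without the component and 0.112 with it), Cyp2c37 (-0.332 and -0.0122) and Fabp1 (-0.294 and -0.169) lost their call. So did Otc (-0.416 and -0.129) and Glul (-0.377 and -0.191).

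The strongest genes for the Per2 term were Ivns1abp (0.614), Pfkl (0.6), a glycolytic enzyme, Kdm4b (0.574), Rev1 (0.571) and Mtss1 (0.558). Against it were Msrb2 (-0.628), Ehhadh, BC004004 (-0.591), Hsd3b7 (-0.588), an enzyme of bile acid synthesis, and Nudt1 (-0.571). Some cell type markers were positive for Per2 at a given Dbp: 6 of 6 of neutrophils and 5 of 6 of bile duct, against 12.2% of all genes. Without Dbp in the model, the means of these lists gave r of -0.0143 and -0.022 with Per2. These markers thus did not rise with Per2 itself. With the component as a term, 265 genes in all were called for Per2, against 3031 without it.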

How the data were processed

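RNA from the livers of 104 mice was measured on arrays of 2 colours against 1 pool; the deposited series table holds, for each of 23536 probes, the authors' log10 ratios. Base and direction are the likely readings given in the report. The scanner files were not used here. Not given in the sources used here: array type, background correction, normalization and tool versions, which could compress ratios or leave a dye effect. Array medians ran from -0.0279 to 0.0222, so no further centring was done.

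Values at the limits of the scale (1.07% of all) were treated as not measured, and 1.69% more were missing. Probes measured on at least 90% of arrays were kept (20633), of which 13238 had 1 gene symbol in the platform annotation, updated through RefSeq gene identifiers; the probes of a gene were averaged, giving 12315 genes. An array was taken as limit-rich above 700 values at the scale ends; the labels name no batch, scan or slide. Missing values drop the mouse from that gene's fit: Npas2 has 101 mice, Cry1 103, Sqle 103 and Lonrf3 97.

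Each gene was regressed on Dbp, on Arntl, on Per2 with Dbp, and on each other member (limma 3.58.1 in R 4.3.3, lmFit and eBayes, two-sided, Benjamini-Hochberg over all genes, threshold 0.05); the fit was tested on simulated data. Pearson and Spearman correlations had 100000 permutations each and are unadjusted. Intervals of r are 95% intervals. Principal components of all genes set missing values to the gene's mean.

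The genes named are the 8 members; the measured genes of the clock list; in each metabolic list up to 3 genes of each sign with the largest moderated t on Dbp among those called opposite in Dbp and Arntl; the 10 of each sign outside the lists; the 5 of each sign for Per2 at a given Dbp; and the 3 most like each member. Other names in the text (mice, markers, probes and Insig1) were chosen after their values were seen. The members, gene lists and rules were chosen with earlier results of these data known. Alternatives were the kinds of array, a batch term, ranks, values at the limits kept, probes on every array, the first component of all genes as a term, leaving out the 2 farthest mice, and 1 probe per gene.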

Additional observations from a re-analysis of the deposited data

How the results depend on the processing

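Counts of genes called with Dbp, with Arntl, opposite in both and for Per2 at a given Dbp were within 1.5 times of those reported under the alternatives run, except on the limit-rich arrays alone and with the first component of all genes as a term. On the 18 limit-rich arrays 5 genes were called with Dbp, 8 with Arntl, 4 opposite in both, 1 for Per2 at a given Dbp, and 2 of 28 member pairs; fewer mice enter these fits. With the component as a term 1398 genes were called with Dbp (543 positive and 855 negative), 1239 opposite in both (441 with Dbp and 798 with Arntl) and 265 for Per2 at a given Dbp, against 4287, 2992 and 3031; 2902 were called with Arntl, against 3846. Ranks over mice turned the split of the genes opposite in both to 2021 with Dbp and 1888 with Arntl, from 1371 and 1621. The fits on other members moved more: Npas2 went from 597 genes to 2033 on the 86 arrays, 67 with ranks and 1133 with values at the limits kept, and with ranks Per2 went from 812 to 1715 and Nfil3 from 1413 to 2359. With the component as a term Tef went from 4864 to 1482, Per2 to 1480 and Usp2 from 1913 to 631. Called member pairs numbered 20 to 23 in the other settings. Component 1 held 58.0% to 63.6% of the variance in the settings with 8 members and 68.0% without Npas2, where 1 gene fewer enters. Among genes named by rule and called in the fit on Dbp, 1 setting that turned signs was the component as a term. There they turned for Hsd11b1 (partial r with Dbp -0.00393), Csnk1e (0.205), Hsd3b7 (-0.233) and Nudt1 (-0.0826). On the limit-rich arrays they turned for Prodh (-0.218) and Hsd3b7 (-0.00677). Ehhadh, not called over all mice (0.215), gave -0.322 with the term. The cause was not tested. Of the 65 genes named by rule from the lists or outside them for Dbp and Arntl, 14 kept their sign and lost their call in the fit on Dbp with the component as a term. Pairs and components with probes measured on every array were not run for Npas2, whose probe is not measured on all. No paired analysis was possible because the mice form 1 group.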

Other observations

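The labels number the mice, and the clock genes moved slightly with that number, a comparison added after the values were seen. Over 104 mice Dbp gave r = -0.28 with the mouse number (permutation p = 0.00421) and rho = -0.302 (p = 0.00176), and -0.282 without the 2 mice with numbers farthest from the median. Arntl gave r = 0.302 (permutation p = 0.00206) and rho = 0.292 (p = 0.00264), and 0.295 without the 2 mice farthest. Clock gave r = 0.244 (permutation p = 0.0126), Tef -0.194 (p = 0.048) and Per2 -0.197 (p = 0.0451). Usp2 (-0.114), Nfil3 (0.084) and Npas2 (0.026) had permutation p of 0.249 or higher. These 8 relations are unadjusted. On the 86 arrays Dbp gave -0.314 and Arntl 0.372; on the 18 limit-rich arrays, which are mice 59 to 107, Dbp gave 0.098 and Arntl -0.275, so the relation did not hold there. What the numbers stand for is not given in the labels.

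D-boxes and E-boxes also lay in the RefSeq windows of other clock genes. Per3, which went with Dbp, held the D-box TTATGTAA at -205 to -198 and again at -158 to -151 before its start site. Cry1, which went with Arntl, held the E-box CACGTG at -60 to -55 and the reverse of CACGTT at -79 to -74, and Cry2, which went with Dbp, held the latter at -166 to -161. Per1, with r = 0.193 to Dbp and an adjusted p of 0.127 in the limma fit, held an E-box at -166 to -161. Bhlhe41 held an E-box at -153 to -148 and Timeless a D-box at -157 to -150, and both went with neither side. The letters alone thus occurred in genes on both sides of the axis and in genes on neither.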
